A study of Bos taurus with 2 samples.

Results

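The 10 genes described here, PECAM1, VWF, CDH5, KDR, TEK, TIE1, ESAM, EMCN, ERG and ROBO4, are markers of the endothelium, the cell layer that lines blood vessels. They were taken by symbol from tables of 24616 Ensembl genes, where each symbol named 1 gene. All 10 had at least 10 counts over both libraries, the minimum for a measured gene, as did 18025 genes in all. The tables come from RNA sequencing of bovine seminiferous tubules, the coiled tubes in which sperm develop, with no genotype, breed or treatment named in the labels. Pieces were flash frozen from removed testes. The younger calf was 3 months old and the older 9 months, and each age has 1 library, with 37600534 and 29782234 counts in that order. With 1 library per age no difference has a replicate check, no p-value is given, and "at 3 months" and "at 9 months" stand for these libraries, not for the ages in general.

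Endothelial cells are held together by junction proteins and take their signals through a few receptors. Vascular endothelial growth factor (VEGF) acts through KDR and its relatives, angiopoietins act through TEK with the related receptor TIE1, and ERG is a transcription factor of the ETS family that keeps endothelial genes active. In the testis the blood vessels run in the interstitium, between the tubules, beside the Leydig cells that make androgens. The epithelium of the tubule itself holds no vessels.

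Most of the 10 genes were less abundant at 9 months, and VWF, the gene of von Willebrand factor, went the other way. Of the 10 genes, 8 were at least 2-fold lower at 9 months with a 95% exact counting interval that excluded a ratio of 1, VWF was at least 2-fold higher by the same rule, and ERG lay within 2-fold. Among all measured genes 22.8% were called lower by this rule and 28.0% higher, and among the 8451 genes within the mean expression range of the 10 (5.24 to 51.1 CPM) 22.2% were lower and 25.8% higher. CPM is the count relative to the effective library size of the trimmed mean of M values (TMM). The median log2 ratio of the 10 genes, 9-month to 3-month library, was -1.24, against 0.02 over all measured genes. Summed over the 10, the level was 260.3 CPM at 3 months and 158.8 CPM at 9 months, a difference of 1.64-fold [1.58 to 1.70, 95% exact counting interval]. Without VWF the sums were 249.6 and 95.4 CPM, and the 9-month library was 2.62-fold lower [2.51 to 2.73]. In bulk tissue, fewer endothelial cells, less of each RNA per cell and a larger share of RNA from other cells cannot be told apart.

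**Figure D1:**
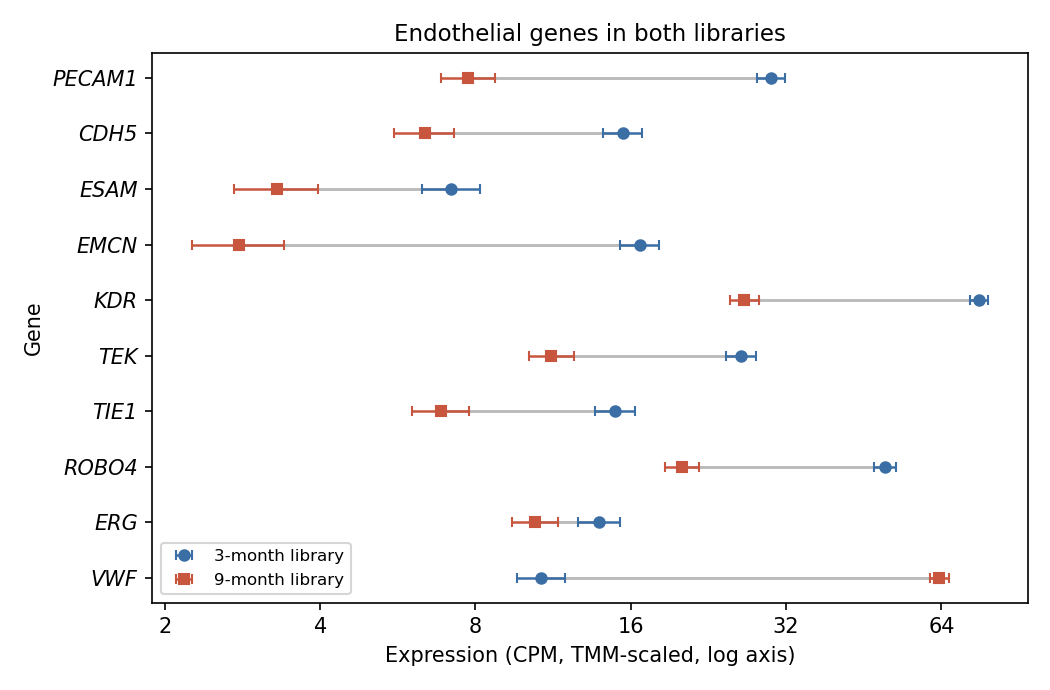
Expression of the 10 endothelial genes in CPM (log axis) in the 3-month (circles) and 9-month (squares) libraries, with 95% exact Poisson intervals of the counts as bars. The 9-month value is the lower for every gene except VWF, which stands at 10.7 and 63.4 CPM, and the 2 values of ERG are the closest together.

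The number of genes past 2-fold depended on the scaling between the libraries. Relative to TMM, plain library totals shifted every log2 ratio by 0.45, scaling to 11 reference genes by 0.41 and upper-quartile scaling by -0.10. With plain totals 3 of the 10 genes were lower (EMCN, PECAM1 and KDR) and 1 higher, beside 14.7% and 36.2% of all measured genes. Reference genes gave the same 3 lower and VWF higher, beside 15.3% and 35.3%. ERG, at a log2 ratio of -0.41 with TMM, was at 0.04 with plain totals and at 0 with reference genes, so it has no direction that holds over the scalings. The other 9 kept their direction under all 6 scalings.

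**Figure D2:**
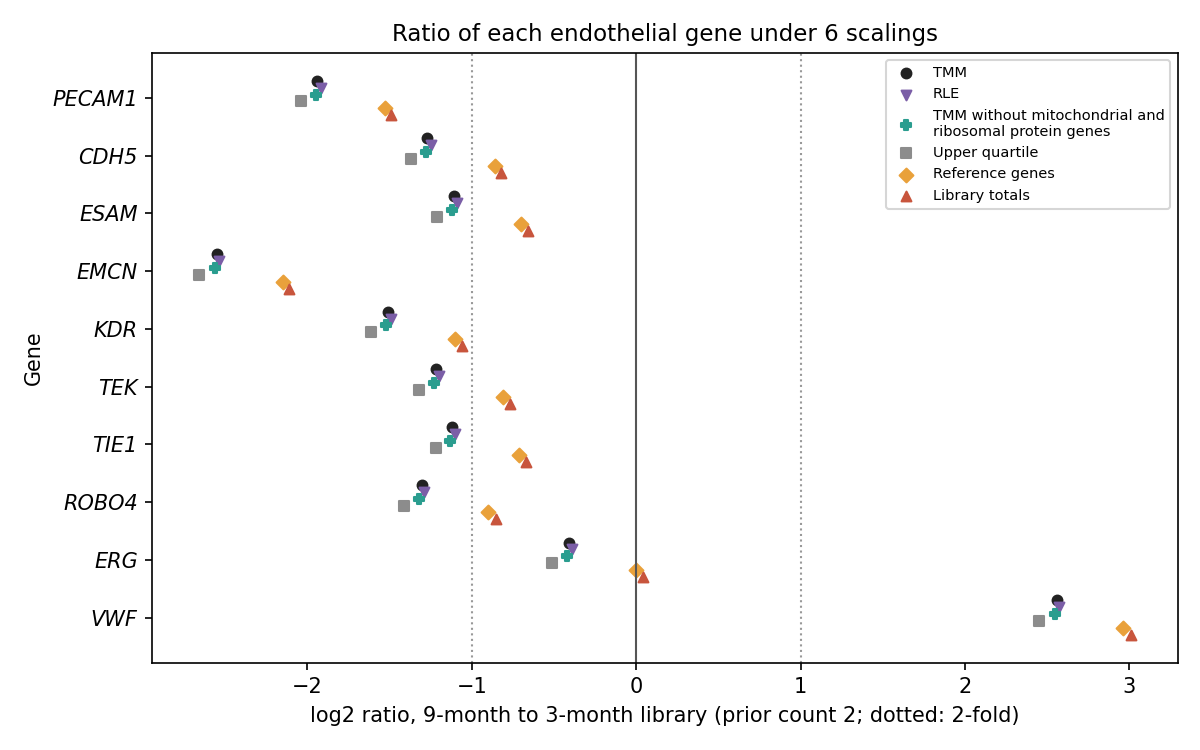
Log2 ratio of each endothelial gene, 9-month to 3-month library, under 6 ways of scaling the libraries (symbols), with dotted lines at 2-fold. EMCN, PECAM1 and KDR lie below -1 and VWF above 1 under every scaling, while CDH5, ESAM, TEK, TIE1 and ROBO4 pass -1 under 4 of them.

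The 3 junction genes were lower at 9 months, though not to the same degree. PECAM1 (ENSBTAG00000012066), an adhesion molecule of endothelial contacts that leukocytes and platelets also carry, had 962 counts at 3 months and 270 at 9 months, or 29.9 and 7.75 CPM. It was 3.86-fold lower [3.37 to 4.44]. CDH5 (ENSBTAG00000007421), the VE-cadherin of adherens junctions, had 496 and 222 counts, or 15.4 and 6.37 CPM, and was 2.42-fold lower [2.06 to 2.85]. ESAM (ENSBTAG00000001004), an immunoglobulin-like protein of tight junctions, had the fewest counts of the 10 at 3 months, 231, and 115 at 9 months. Its level was 7.19 and 3.30 CPM, a difference of 2.18-fold [1.73 to 2.75]. The interval of PECAM1 did not overlap those of CDH5 and ESAM. In the assembly ARS-UCD2.0 PECAM1 overlaps MILR1, a receptor gene of mast cells, which had 108 and 20 counts, and with the strand setting not given in the labels or tables reads from the overlap cannot be told apart. PECAM1 also overlaps a long non-coding RNA gene there, and EMCN, described next, a pseudogene.

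EMCN (ENSBTAG00000034206) encodes endomucin, a mucin-like surface protein found mainly on capillaries and veins. It had 535 counts at 3 months and 97 at 9 months, or 16.6 and 2.78 CPM. This was the lowest ratio of the 10, 5.98-fold lower [4.81 to 7.50], at the 4.02nd percentile of the log2 ratios of all measured genes. EMCN was also the only member that stayed called lower at 4-fold, a size that 8.59% of measured genes reached downwards. PECAM1 followed at the 8.58th percentile.

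The 4 receptor genes lay between 2.18-fold and 2.85-fold lower. KDR (ENSBTAG00000000782), the main signalling receptor for VEGF, had 2431 and 925 counts, or 75.6 and 26.6 CPM, and was 2.85-fold lower [2.64 to 3.08]. ROBO4 (ENSBTAG00000004356), a receptor of the roundabout family that stabilises vessels, had 1601 and 701 counts, or 49.8 and 20.1 CPM, and was 2.48-fold lower [2.26 to 2.71]. TEK (ENSBTAG00000020148), also called TIE2, had 842 and 391 counts, or 26.2 and 11.2 CPM, and was 2.33-fold lower [2.07 to 2.64]. TIE1 (ENSBTAG00000003777), which modulates TEK, had 480 and 239 counts, or 14.9 and 6.86 CPM, and was 2.18-fold lower [1.86 to 2.55]. Per length, TEK stood to TIE1 as 1.39 to 1 at 3 months [1.24 to 1.56] and as 1.29 to 1 at 9 months [1.10 to 1.53], so that their proportion did not differ beyond counting error. TEK overlaps IFT74 in ARS-UCD2.0, a gene of transport along cilia whose level was higher, 43.4 and 74.8 CPM, and the share of reads that the overlap could move between the pair was not tested.

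ERG (ENSBTAG00000011001) had 446 counts at 3 months and 364 at 9 months, or 13.9 and 10.4 CPM, the smallest difference of the 10 at 1.33-fold [1.15 to 1.53]. VWF (ENSBTAG00000012265), the multimeric clotting protein that endothelial cells store in Weibel-Palade bodies, had 345 and 2209 counts, or 10.7 and 63.4 CPM. It was 5.91-fold higher [5.27 to 6.64] at 9 months, at the 86.9th percentile of all measured genes. This single gene held 4.12% of the counts of the 10 genes at 3 months and 39.9% at 9 months.

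Comparisons within a library do not depend on the scaling between libraries. On the deposited RPKM scale, which is per length of gene, ROBO4 led at 3 months at 11.5, followed by KDR at 10.8, EMCN at 9.98, PECAM1 at 7.44, CDH5 at 7.09, TEK at 4.86, ERG at 4.25, TIE1 at 3.51, ESAM at 3.31 and VWF last at 1.09. The neighbours KDR and EMCN, PECAM1 and CDH5, and TIE1 and ESAM did not differ beyond their counting intervals. In the 9-month library VWF led at 8.80 RPKM, followed by ROBO4 at 6.38, KDR at 5.18, ERG at 4.38, CDH5 at 4.01, TEK at 2.85, PECAM1 at 2.63, EMCN at 2.29, TIE1 at 2.20 and ESAM at 2.08. There the neighbours ERG and CDH5, TEK and PECAM1, PECAM1 and EMCN, EMCN and TIE1, and TIE1 and ESAM did not differ beyond counting error. ESAM and TIE1 were near the bottom in both libraries, EMCN went from the third place to the eighth, and VWF from the last to the first.

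**Figure D3:**
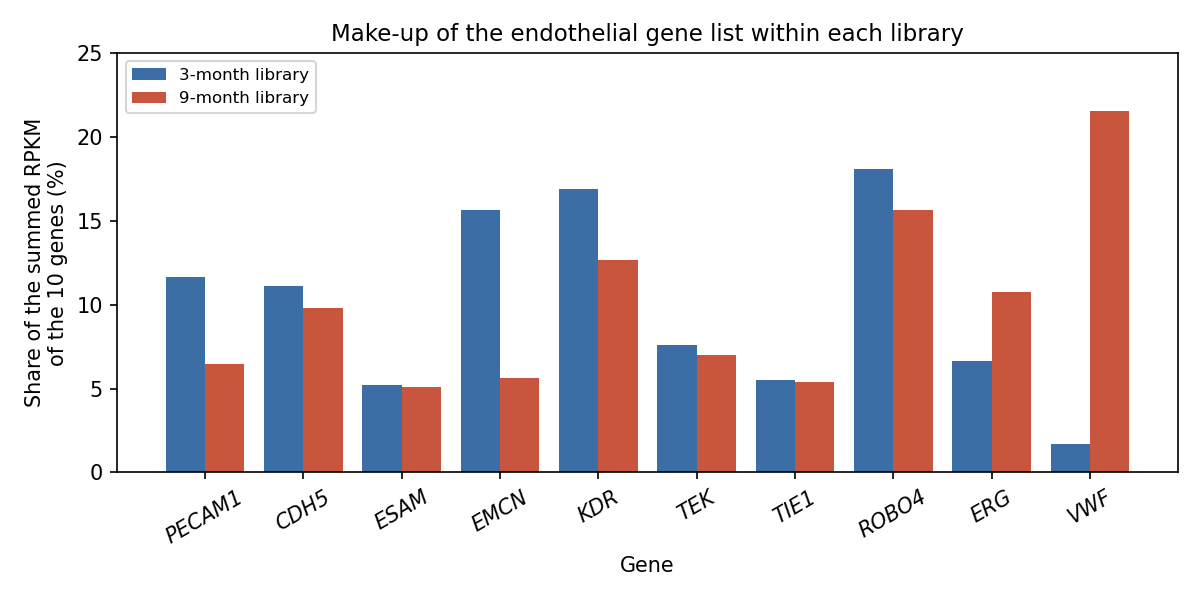
Share of each gene in the summed RPKM of the 10 endothelial genes (bars from 0, in percent) in the 3-month and 9-month libraries. VWF goes from 1.71% to 21.6% and ERG from 6.66% to 10.7%, EMCN from 15.6% to 5.60% and PECAM1 from 11.6% to 6.46%, while TIE1 and ESAM stay near 5% in both. The rise of VWF lowers the other shares at 9 months. With VWF left out of the sum (not drawn), ERG goes from 6.77% to 13.7%, TIE1 from 5.59% to 6.89% and ESAM from 5.28% to 6.51%. ROBO4 then goes from 18.4% to 19.9%, EMCN from 15.9% to 7.14% and PECAM1 from 11.8% to 8.23%.

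Proportions within pairs of genes also involve no scaling. The per-length proportion of 2 genes was compared between the libraries for all 45 pairs, and its 95% intervals in the libraries did not overlap for 31, or 68.9%. Among all pairs of the 8451 genes in the same range of mean expression this share was 86.7%, so that differing proportions were no more frequent among the 10 genes than among genes of like level. All 9 pairs with VWF were among them, as were all 8 pairs of EMCN and all 8 pairs of ERG with the remaining genes. VWF stood to CDH5 as 0.154 to 1 at 3 months [0.134 to 0.177] and as 2.20 to 1 at 9 months [1.91 to 2.53]. CDH5 stood to EMCN as 0.710 to 1 at 3 months [0.627 to 0.804] and as 1.75 to 1 at 9 months [1.37 to 2.25]. Among CDH5, TEK, TIE1, ESAM and ROBO4, a group picked after their values were seen, the intervals overlapped for all 10 pairs, so any change in their proportions was not detectable at this depth.

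Among the partners of the VEGF receptor KDR more genes were lower than higher. Of 9 measured VEGF ligands and other VEGF receptors 6 were lower and 1 higher, and 2 stayed inside 2-fold (median log2 ratio -1.23), with 4 lower under plain totals. The shares of all measured genes were 22.8% lower and 28.0% higher with TMM, and 14.7% and 36.2% with plain totals. VEGFA, the main ligand of KDR, went from 4.85 to 2.04 CPM, and FIGF, the symbol here of the lymphatic growth factor VEGF-D, from 9.05 to 0.718 CPM, 12.6-fold lower [8.37 to 19.8]. PGF, the placental growth factor, was at 2.15 and 0.746 CPM, VEGFB at 23.8 and 13.7, and VEGFC, which acts on lymphatic vessels, at 30.7 and 16.0. The co-receptor NRP1 was 2.90-fold lower [2.68 to 3.14] and FLT4, the VEGF-C receptor, 2.74-fold lower [2.15 to 3.52], both close to KDR. The exception was FLT1, a VEGF receptor with a decoy role, which went from 273 to 1043 counts and was 3.53-fold higher [3.08 to 4.04]. Per length FLT1 stood to KDR as 0.165 to 1 at 3 months [0.145 to 0.187] and as 1.66 to 1 at 9 months [1.52 to 1.81].

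The ligands of TEK stayed inside 2-fold. Of 3 measured genes, the angiopoietins ANGPT1 and ANGPT2 and the phosphatase gene PTPRB, which restrains TEK, none was called at 2-fold, and their median log2 ratio was -0.47, or -0.02 with plain totals. ANGPT1, the activating ligand, was at 1.87 and 2.61 CPM with only 60 and 91 counts, ANGPT2, the context-dependent ligand released by endothelium, at 11.2 and 8.10 CPM, and PTPRB at 16.6 and 10.2 CPM. Per length ANGPT2 stood to TEK as 0.653 to 1 [0.576 to 0.740] at 3 months and as 1.10 to 1 [0.942 to 1.29] at 9 months. Of 7 SLIT and roundabout genes 3 were lower and 1 higher, and 3 stayed inside 2-fold (median -0.86), beside 22.8% lower and 28.0% higher among all measured genes. ROBO1 was 2.96-fold lower [2.86 to 3.06], ROBO2 3.26-fold [2.94 to 3.61] and the guidance ligand SLIT2 5.21-fold [3.39 to 8.29], and the higher gene, named after its values were seen, was ROBO3, at 1.37 and 4.10 CPM. SLIT3 was at 27.7 and 15.6 CPM, and UNC5B, a receptor that ROBO4 can bind, at 5.85 and 3.19 CPM.

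Further endothelial genes were mostly lower or inside 2-fold. The counts of each list stand beside 22.8% lower and 28.0% higher among all measured genes, or 14.7% lower with plain totals. Of 27 further endothelial-enriched genes 18 were lower and 0 higher, and 9 stayed inside 2-fold (median log2 ratio -1.60), and 17 were still lower with plain totals. The surface lectin-like gene CLEC14A was 8.44-fold lower [7.55 to 9.45], the anticoagulant receptor gene THBD 6.85-fold [6.38 to 7.36], the BMP9 receptor gene ACVRL1 5.69-fold [5.25 to 6.17] and the small GTPase gene RHOJ 5.54-fold [4.66 to 6.61]. Of 16 junction and adhesion genes 7 were lower and 1 higher, and 8 stayed inside 2-fold (median -0.81). CLDN5, the claudin of endothelial tight junctions, was 5.93-fold lower [4.95 to 7.13], and per length it stood to CDH5 as 2.30 to 1 [2.05 to 2.58] and as 0.940 to 1 [0.757 to 1.17]. VCAM1, a leukocyte adhesion receptor summed over 2 Ensembl genes, was 6.97-fold lower [6.52 to 7.47], and the plakoglobin gene JUP 4.98-fold [4.65 to 5.32]. Of 14 genes of Notch signalling and of artery or vein identity 8 were lower and 1 higher, and 5 stayed inside 2-fold (median -1.33). The Notch ligand JAG1 was 4.13-fold lower [3.74 to 4.57], the arterial connexin gene GJA5 4.10-fold [3.12 to 5.47], NR2F2, a regulator of vein identity also made by testicular stroma, 3.99-fold [3.77 to 4.23] and the Notch target HEYL 2.78-fold [2.62 to 2.96]. The higher gene, named after its values were seen, was the Notch ligand JAG2, at 7.09 and 14.6 CPM. Several of these genes were more abundant at 3 months than KDR, the highest of the 10 genes there at 75.6 CPM. VCAM1 stood at 195.2 CPM, THBD at 177.6, NR2F2 at 174.4, HEYL at 121.7 and ACVRL1 at 117.4, and JUP and CLEC14A were also above KDR. RHOJ, CLDN5, JAG1, GJA5 and JAG2 were below it. How much of the RNA of these genes came from cells other than endothelium was not tested.

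Transcription factors of the endothelium, the company of ERG, were divided. Of 16 measured, 7 were lower and 3 higher, and 6 stayed inside 2-fold (median log2 ratio -0.86). HHEX, a homeobox gene of early endothelium, was 3.27-fold lower [2.43 to 4.44], and ETS2, of the same family as ERG, 2.85-fold [2.33 to 3.52]. FLI1, the closest relative of ERG and named after its values were seen, was at 10.1 and 5.37 CPM, and per length it stood to ERG as 1.504 to 1 [1.30 to 1.74] at 3 months and as 1.06 to 1 [0.881 to 1.26] at 9 months. The 3 higher genes were KLF4, a zinc finger factor that many epithelia also make, 6.63-fold [5.91 to 7.44], TAL1, of blood and endothelial development, 4.69-fold [3.76 to 5.90], and EPAS1, the hypoxia-inducible factor 2 alpha, 2.36-fold [2.19 to 2.54]. EPAS1 was named after its values were seen. Over these 7 lists of partners and related genes together, 49 of 92 measured genes were lower and 7 higher, or 37 and 9 with plain totals. These counts stand beside 22.8% lower and 28.0% higher among all measured genes with TMM, and 14.7% and 36.2% with plain totals. The part of cells other than endothelium in the counts of these lists was not tested.

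**Figure D4:**
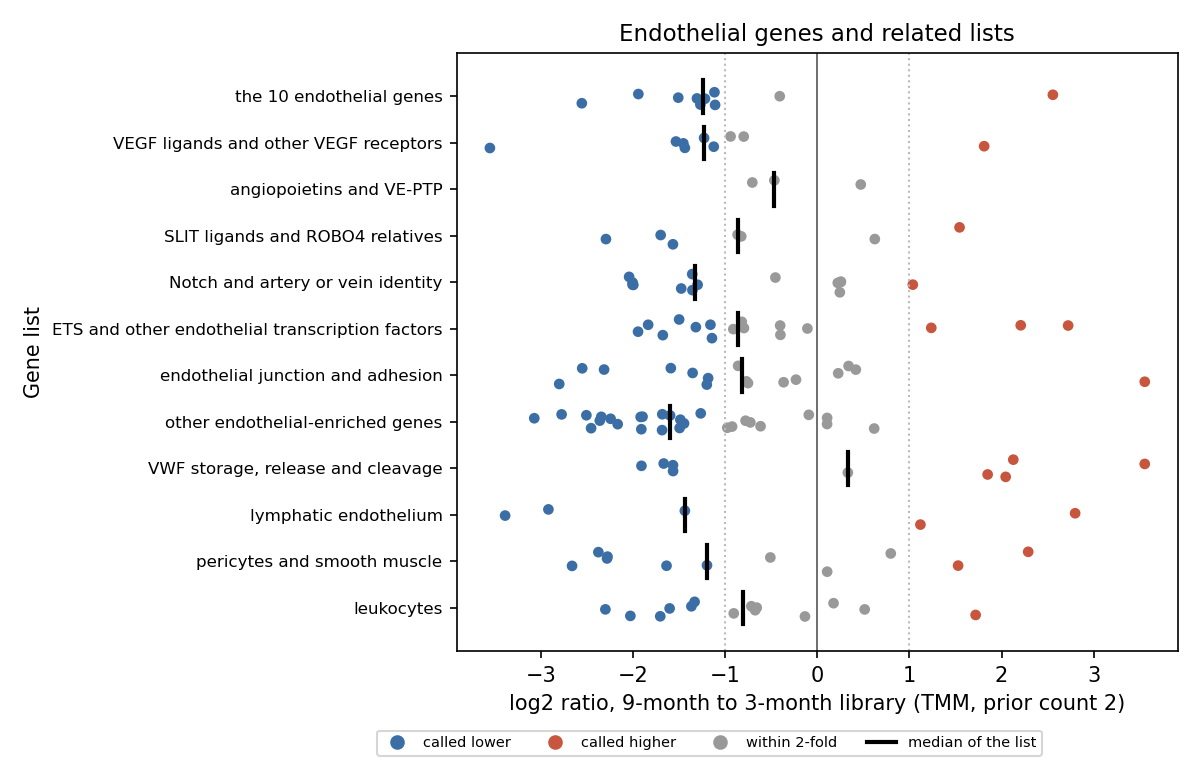
Log2 ratio, 9-month to 3-month library, of each measured gene (points, coloured by call, with random vertical scatter) in the 10 endothelial genes and in 11 related lists, with the median of each list as a black bar. Medians lie between -0.47 and -1.60 in every list shown except the genes of VWF storage, release and cleavage, which split into 4 higher and 4 lower around 0.33.

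Genes that handle VWF went both ways. Of 9 measured, 4 were higher and 4 lower, and 1 stayed inside 2-fold (median log2 ratio 0.33). Among all measured genes 28.0% were higher and 22.8% lower. SELP, also the higher gene of the junction and adhesion list, encodes P-selectin, which is stored with VWF in Weibel-Palade bodies and in platelet granules. It had 26 counts at 3 months and 353 at 9 months and was 12.5-fold higher [8.41 to 19.4]. ADAMTS13, the protease that cleaves VWF, had 16 and 78 counts, a 4.50-fold difference [2.60 to 8.26]. STXBP5 and UNC13D, both of granule release in many cell types, were 3.61-fold [3.23 to 4.05] and 4.42-fold [3.61 to 5.45] higher. F8, the clotting factor that VWF carries, had 132 and 47 counts and was 3.04-fold lower [2.17 to 4.34], and SYTL4, of granule docking, was 3.78-fold lower [3.19 to 4.51]. CD63, at 262.8 and 82.8 CPM, was 3.17-fold lower [3.04 to 3.31] and RAB27A 3.00-fold lower [2.39 to 3.79]. CD63 and RAB27A were named after their values were seen. Platelets also contain VWF. Of 9 platelet genes only ITGA2B reached 10 counts, at 294 and 1710, and was 5.37-fold higher [4.74 to 6.09]. The other 8 had at most 4 counts at 3 months and 7 at 9 months, with PPBP and GP6 at 0 in both and PF4 at 1 and 0, so that 8 of the 9 were at or near 0. PPBP, GP6 and PF4 were named after their values were seen.

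VWF was the longest of the 10 genes, at 8427 bases, and EMCN the shortest, at 1425. Across all measured genes the ratio was somewhat higher for longer genes, with a median log2 ratio of -0.25 for genes under 1 kb and of 0.46 for the 207 genes over 8 kb. Of those 207 genes 35.3% were called higher. Among the 63 genes over 8 kb within the mean expression range of the 10, the median was 0.84, the upper quartile 2.28 and the share called higher 42.9%. The log2 ratio of VWF, 2.56, lay just above that upper quartile. Over the 10 members the Spearman correlation of length and log2 ratio was 0.25, and over the 9 without VWF -0.03, given as a description of genes that share both libraries. TEK and ESAM, at 4603 and 1854 bases, were 2.33-fold and 2.18-fold lower, and EMCN, at 1425 bases, was 5.98-fold lower. These genes were set side by side after their values were seen, and the part of length in the ratios was not tested.

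**Figure D5:**
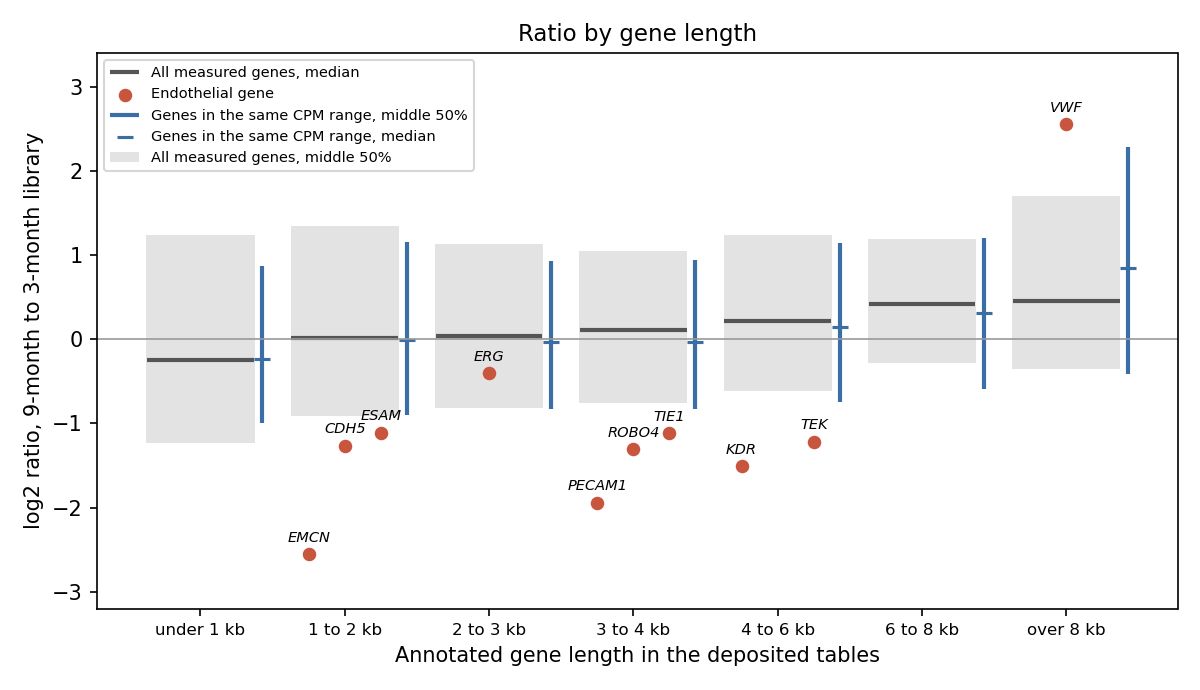
Log2 ratio, 9-month to 3-month library, of the 10 endothelial genes (labelled points) by class of annotated gene length, beside the median (line) and the middle 50% (grey) of all measured genes in that class and, in blue, of the genes within the mean CPM range of the 10. VWF lies above the middle 50% of all measured genes over 8 kb and just above that of genes of like level, ERG within those of its class, and the other 8 genes below those of theirs.

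Markers of other cells that a tubule sample can hold are given beside the endothelial genes, and their part in these results was not tested. Their counts also stand beside 22.8% lower and 28.0% higher among all measured genes. Leydig cells, the neighbours of the vessels, had 5 of 5 measured genes lower, a median log2 ratio of -3.91 and summed levels of 17510 and 2722 CPM. Pericytes and smooth muscle had 6 of 11 lower and 2 higher, with a median of -1.20 and sums of 708 and 694 CPM. Whether the RNA of this list came from vessels or from the tubule wall was not tested. Within that list the pericyte genes RGS5 and CSPG4 were lower, at 240.5 and 38.0 CPM and at 14.1 and 2.67 CPM. PDGFRB, at 168.3 and 34.7 CPM, KCNJ8, at 11.7 and 2.35 CPM, and NOTCH3, at 42.8 and 13.75 CPM, were also lower. The contractile genes MYH11 and ACTA2 were higher, at 51.4 and 251.3 CPM and at 84.6 and 244.2 CPM, but the contractile gene CNN1 was lower, at 31.5 and 13.7 CPM. The contractile genes DES and TAGLN and the pericyte gene ABCC9 stayed inside 2-fold, so the list divided by type only in part. TAGLN was 1.74-fold higher [1.63 to 1.86] and was called higher with plain totals. PDGFRB, KCNJ8, NOTCH3, ACTA2, CNN1, DES, TAGLN and ABCC9 were named after their values were seen. Fibroblast genes were lower for 3 of 6, with a median of -1.18 and sums of 3761 and 1136 CPM, LUM standing at 337.4 and 4.22 CPM. Lymphatic endothelium had 3 of 5 lower and 2 higher, with a median of -1.44 and sums of 122.8 and 101.9 CPM. Its receptor gene LYVE1 was at 24.6 and 2.30 CPM and its chemokine gene CCL21 at 56.1 and 7.38 CPM, while PROX1, its master regulator, was at 2.83 and 20.0 CPM.

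Leukocyte genes, some of whose cells carry PECAM1, were lower for 6 of 14 and higher for 1, with a median log2 ratio of -0.81 and sums of 654.3 and 344.4 CPM. For this and the next lists the shares of all measured genes were again 22.8% lower and 28.0% higher. The complement genes C1QB, C1QA and C1QC were lower, at 181.8 and 36.9, 111.0 and 34.0, and 102.7 and 33.8 CPM. The higher gene was AIF1, of macrophages, at 15.7 and 51.9 CPM. Other macrophage genes did not share its direction, CSF1R being lower at 45.1 and 17.9 CPM and CD163 at 27.5 and 10.65 CPM. CD68, at 13.3 and 7.06 CPM, and CD14, at 31.1 and 44.5 CPM, stayed inside 2-fold. C1QC, CSF1R, CD163, CD68 and CD14 were named after their values were seen. Red blood cell genes were near the floor, with 3 measured, 2 lower, a median of -1.50 and sums of 3.02 and 1.58 CPM, and HBB, named after its values were seen, had 31 counts and 0. Sertoli cell genes, which define the tubule, were present in both libraries, with 4 of 7 lower, 1 higher, a median of -1.52 and sums of 4037 and 757.6 CPM. Most of the 3-month sum came from INHA, at 2278 and 216.4 CPM, and AMH, at 1185 and 34.0 CPM. The higher gene was CLDN11, at 6.44 and 319.3 CPM, and WT1 and SOX9, named after their values were seen, stayed inside 2-fold. All 8 germ cell genes were higher, with a median of 9.82 and sums of 33.1 and 3070 CPM. The 11 reference genes had 2 lower and 0 higher, and their median of -0.33 became 0.12 with plain totals.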

How the data were processed

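Per the labels' protocols, libraries were made from column-purified total RNA, and per the submitters' processing notes Trimmomatic 0.33, STAR 2.4.0 and the genome build UMD3.1 were used. Counting program, annotation release, strand setting and any molecular identifiers: not given in the sources used here. The deposited tables carry no header. Raw counts per gene were deposited as whole numbers, beside gene length and RPKM. The deposited RPKM equals count per length and table total to within 0.000496%.

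Effective library sizes were computed by TMM in edgeR 4.0.16 (R 4.3.3) from genes with at least 10 counts, with factors of 0.855 and 1.17. Log2 ratios carry a prior count of 2. Folds are ratios of scaled counts with 95% exact conditional binomial intervals, which cover counting error only and may be too narrow if reads are not independent molecules. A gene was called at 2-fold with an interval that excluded 1. The interval code was tested on simulated data. Symbols with more than 1 Ensembl gene were summed in lists.

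The members and the 19 lists were chosen with earlier results of these data known. Named genes were all 10 members, their direct partners, and in each list the 4 (other cell types, 3) largest absolute log2 ratios among genes that reached 5 CPM in either library; some taken by this rule are given only within their list. MILR1 and IFT74 are named as neighbours that overlap members. ANGPT4, SOX7, KLF2, TJP1, GPIHBP1, PDPN and HSD3B1 were not matched by symbol and are not analysed here. No sequences are shown, and coordinates of ARS-UCD2.0 were not used beyond overlaps. Further computing used scipy 1.17.1, pandas 2.3.3 and numpy 2.4.6 under Python 3.11.15, and plots matplotlib 3.10.9.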

Additional observations from a re-analysis of the deposited data

How the results depend on the processing

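With plain library totals 3 members were at least 2-fold lower, the median log2 ratio was -0.79, and the summed level of the 9-month library was 0.835 of the 3-month level, or 0.523 without VWF, against 0.610 and 0.382 with TMM. Scaling to reference genes gave 3 members lower, a median of -0.84 and ratios of 0.810 and 0.508. Upper-quartile scaling gave a median of -1.35 and ratios of 0.568 and 0.356. The median was -1.22 with RLE scaling, -1.25 with TMM without mitochondrial and ribosomal protein genes, -1.25 with a prior count of 0.5 and -1.22 with a prior count of 10. At 4-fold 1 member was lower. The log2 ratio of ERG turned to 0.04 with plain totals. A minimum of 1 or of 50 counts kept all 10 members, and 1 member was higher under every alternative run. Of 70 alternatives for single members, 50 stayed within the counting interval, 19 moved beyond it without turning and 1 turned. Among the 19 was ERG with reference genes, where it had no direction. No paired analysis was possible because each age has 1 library, and for the same reason no library could be left out. Depth limits the named genes with few counts in a library, among members ESAM and EMCN, and among related genes for example SELP, FIGF, PGF, SLIT2, ADAMTS13, ROBO3, F8, ANGPT1, HHEX, GJA5, VEGFA and UNC5B, each with at most 115 counts in its lower library.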
